A study of Mus musculus with 9 samples.

Results

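The Myh7b promoter was examined at 7 CpG dinucleotides in 2 bisulfite PCR amplicons, Myh7b_1 with 3 CpGs and Myh7b_2 with 4, out of 355 CpGs in 30 amplicons of 15 genes. A CpG was taken where its amplicon carried the name of Myh7b and its coverage was 30 reads or more in all 9 libraries. All 7 met that minimum, as did 310 CpGs in 26 amplicons of the series, and the lowest coverage among the 7 was 274 reads. The gene was chosen by its measured methylation levels, because Myh7b_1 held a CpG that varied widely between libraries. The levels of Myh7b_1 are therefore given as a description with no test, and tests were kept to Myh7b_2, which came in by its gene name.

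Libraries came from ventricular cardiomyocytes of CD-1 mice, an outbred stock, at embryonic day 13.5. Cells grew for 48 h, received 0.012 pmol of a pool of siRNAs to DNMT3a (3 libraries), a pool to DNMT3b (3 libraries) or the negative control siRNA (3 libraries), and were released 72 h later for magnetic selection with an antibody to VCAM1. Ventricles of a litter were pooled, and the labels do not say whether the 3 libraries of a group came from separate litters, so p-values measure the spread between these libraries. Only DNA was sequenced, so neither the cell type nor the depletion of either enzyme was checked here. Each library held 27193672 to 32543683 cytosine calls in all.

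Myh7b encodes a myosin heavy chain of the sarcomere, related to the cardiac chains encoded by Myh6 and Myh7, and an intron of the gene carries the microRNA miR-499. DNMT3a and DNMT3b are the methyltransferases that place methyl groups on previously unmethylated CpGs. Methylation around a transcription start is commonly found at genes that are silent or little transcribed. After bisulfite treatment an unmethylated cytosine is read as T and a methylated one as C, and the level of a CpG is the percent of its reads carrying C. A level is a share of all molecules in the sample, so a smaller fraction of methylated cells and a change in every cell cannot be told apart.

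The amplicons were placed on the RefSeq promoter of Myh7b (GRCm38.p6, forward strand) by their listed cytosines. In Myh7b_1, 42 of 42 cytosines inside the promoter window matched in position and in the 2 bases that follow, and in Myh7b_2, 39 of 39 did. The sequence from 250 bases before the annotated start to 20 bases after it is shown because it holds all 3 CpGs of Myh7b_1 and the last of Myh7b_2, with the CpGs in capitals.
Myh7b promoter, chr2:155610993-155611262: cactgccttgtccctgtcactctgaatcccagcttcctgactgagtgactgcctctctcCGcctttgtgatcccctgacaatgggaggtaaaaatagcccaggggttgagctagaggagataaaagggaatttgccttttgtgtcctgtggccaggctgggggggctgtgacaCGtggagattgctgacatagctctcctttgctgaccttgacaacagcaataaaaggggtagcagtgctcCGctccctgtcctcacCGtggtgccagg

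CpGs are named by their offset, the base position within the amplicon as listed. The first CpG in capitals is offset 352 of Myh7b_2, at -191 from the start. The next is offset 76 of Myh7b_1, at -77, and it forms the middle of the letters CACGTG. Then come offset 145, at -8 (chromosome 2, position 155611235), and offset 161, 16 bases farther on at 8, inside the annotated gene, which spans 155611243 to 155634307. Whether that base is coding or untranslated is not given in the tables used here. The other 3 CpGs of Myh7b_2, offsets 122, 167 and 248, lie beyond the window at -421, -376 and -295 by their listed offsets. The base after the CpG is C at offsets 145 and 352, A at offset 167 and T at the remaining CpGs. The amplicons share 7 cytosines at their adjoining ends, none of them in a CpG.

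With 4 CpGs in 300 bases the window is poorer in CpGs than most, since the median of 32851 mouse promoters was 7 and 38.0% held 4 or fewer. On either strand the E-box CANNTG occurred at 2 places, CACGTG at -79 to -74 and CAGGTG at 16 to 21, and 72.3% of promoters hold at least 1. The letters CACGTG, looked for after the sequence was seen and a special case of the E-box, were in 7.15% of promoters. The GATA motif AGATAA occurred once, at -133 to -128, and was in 11.2% of promoters. CATTCC (M-CAT) and AAGTG (NKX2-5 core) were not in this window and were in 14.7% and 46.4% of promoters.

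Methylation differed widely along the promoter. In negative siRNA libraries it averaged 61.7% ± 1.89 at offset 167 of Myh7b_2, 43.4% ± 3.21 at offset 352, 37.9% ± 1.74 at offset 122 and 27.4% ± 2.34 at offset 248 (SD, n = 3 each). In Myh7b_1 it averaged 47.9% ± 8.5 at offset 161 and 37.6% ± 27.1 at offset 145, but only 2.44% ± 0.24 at offset 76, inside CACGTG (SD, n = 3 each). Cytosines outside CpG gauge incomplete conversion, and 0.180% to 0.380% of their reads carried C over 53 cytosines of Myh7b_1 and 0.102% to 0.153% over 89 of Myh7b_2. Offset 76 was low but above those pooled values in all libraries, with 1.19% as its lowest value, although a single cytosine outside CpG in Myh7b_1 reached 3.20% on 125 reads.

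**Figure D1:**
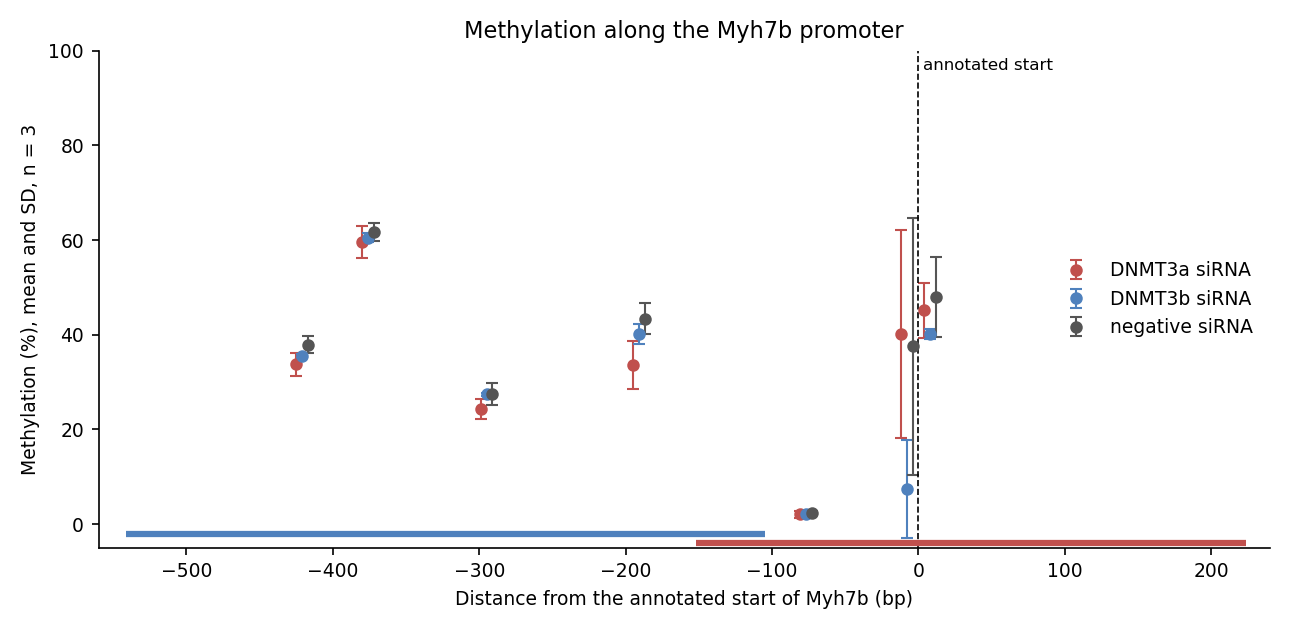
Methylation (percent of reads carrying C, mean and SD of 3 libraries) against distance from the annotated start of Myh7b in bp, for DNMT3a, DNMT3b and negative siRNA, with groups set 4 bp apart for legibility. Lines along the base mark the amplicons, Myh7b_2 (upper) and Myh7b_1 (lower). The CpG at -77 is near 2% in every group, and the error bars at -8 are the widest.

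Offset 145 of Myh7b_1 was the CpG for which the gene was chosen. It stood at 57.7%, 47.0% and 15.5% in DNMT3a siRNA replicates 1, 2 and 3, at 19.3%, 1.73% and 1.07% in DNMT3b siRNA replicates 1, 2 and 3, and at 67.0%, 13.7% and 31.9% in negative siRNA replicates 1, 2 and 3. Within each group replicate 1 was the highest, and the groups overlapped in every comparison. Between libraries of the same replicate number, DNMT3b siRNA was below DNMT3a siRNA and below negative siRNA in 3 of 3 pairs each, and DNMT3a siRNA was below negative siRNA in replicates 1 and 3 and above it in replicate 2. Since the CpG was chosen for its values and the labels tie replicate numbers to no shared litter or day, these directions are a description. Means were 40.1% ± 22.0 with DNMT3a siRNA, 7.37% ± 10.3 with DNMT3b siRNA and 37.6% ± 27.1 with negative siRNA (SD, n = 3 each). The difference from negative siRNA was 2.55 points for DNMT3a siRNA and -30.2 points for DNMT3b siRNA, while the SDs within DNMT3a and negative siRNA were 22.0 and 27.1 points.

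The 95% Wilson interval of a value at offset 145 was at most 2.49 points wide, an interval that covers counting of reads and not the variation between cultures or PCRs. The SD within groups, pooled over the 3 groups, was 21.0 points, the value the gene was chosen for. It was the largest such SD among the 310 CpGs of the series, whose median was 1.09 points, or 2.72 points over the 177 CpGs with mean levels between 2% and 98%. It held rank 2 without DNMT3a siRNA replicate 3 or without negative siRNA replicate 2, and 10 when levels were put on the logit scale. Offset 161, at rank 11, had a pooled SD of 5.99 points and offset 76, at rank 174, one of 0.494 points. The CpGs of Myh7b_2 held ranks 50 to 125.

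**Figure D2:**
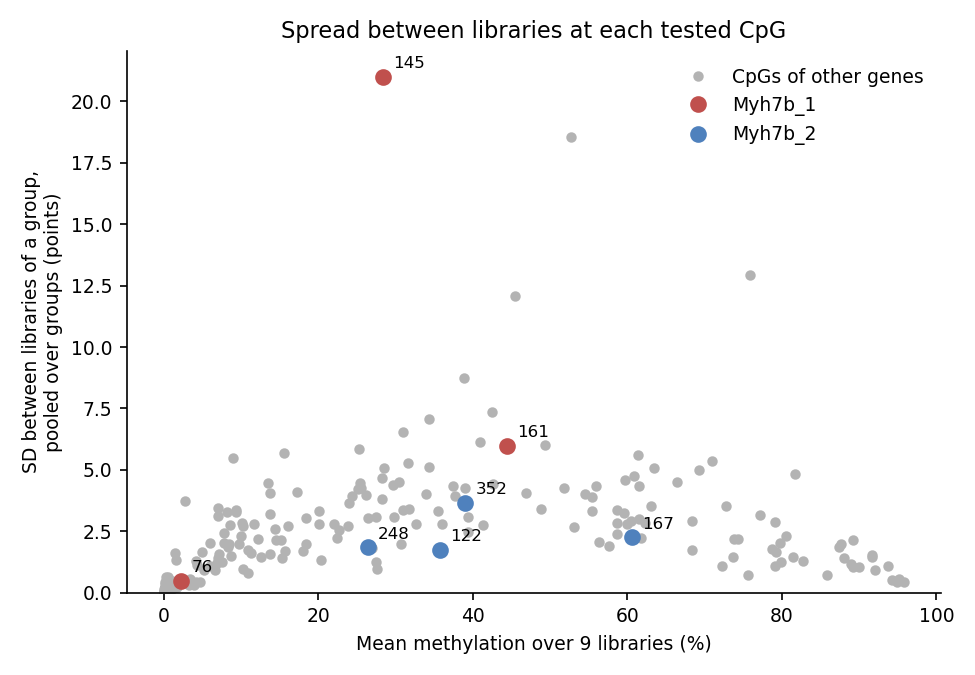
SD between libraries of the same group, pooled over the 3 groups, in percentage points (vertical), against mean methylation over 9 libraries in percent (horizontal), for the 310 tested CpGs. Offset 145 of Myh7b_1 lies highest at 21.0 points, and the 4 CpGs of Myh7b_2 lie at 1.75 to 3.66 points.

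Offset 161, 16 bases from offset 145, ranked the libraries similarly at the top but over a narrower range. It stood at 47.2%, 49.7% and 38.6% in DNMT3a siRNA replicates 1, 2 and 3, at 40.1%, 41.2% and 39.05% in DNMT3b siRNA, and at 57.4%, 41.1% and 45.3% in negative siRNA. The 3 libraries highest at offset 145, negative siRNA replicate 1 and DNMT3a siRNA replicates 1 and 2, were also the 3 highest here, whereas DNMT3b siRNA replicates 2 and 3, near 1% to 2% at offset 145, still had 41.2% and 39.05%. Means were 45.2% ± 5.84 with DNMT3a siRNA, 40.1% ± 1.06 with DNMT3b siRNA and 47.9% ± 8.5 with negative siRNA (SD, n = 3 each).

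Offset 76 did not follow them. It stood at 1.19%, 2.26% and 2.71% in DNMT3a siRNA replicates 1, 2 and 3, at 1.92%, 2.20% and 2.44% in DNMT3b siRNA, and at 2.69%, 2.44% and 2.21% in negative siRNA. The library lowest here, DNMT3a siRNA replicate 1, was the second highest at offset 145. Means were 2.06% ± 0.78, 2.18% ± 0.26 and 2.44% ± 0.24 in DNMT3a, DNMT3b and negative siRNA, and the groups overlapped in every pairing (SD, n = 3 each).

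**Figure D3:**
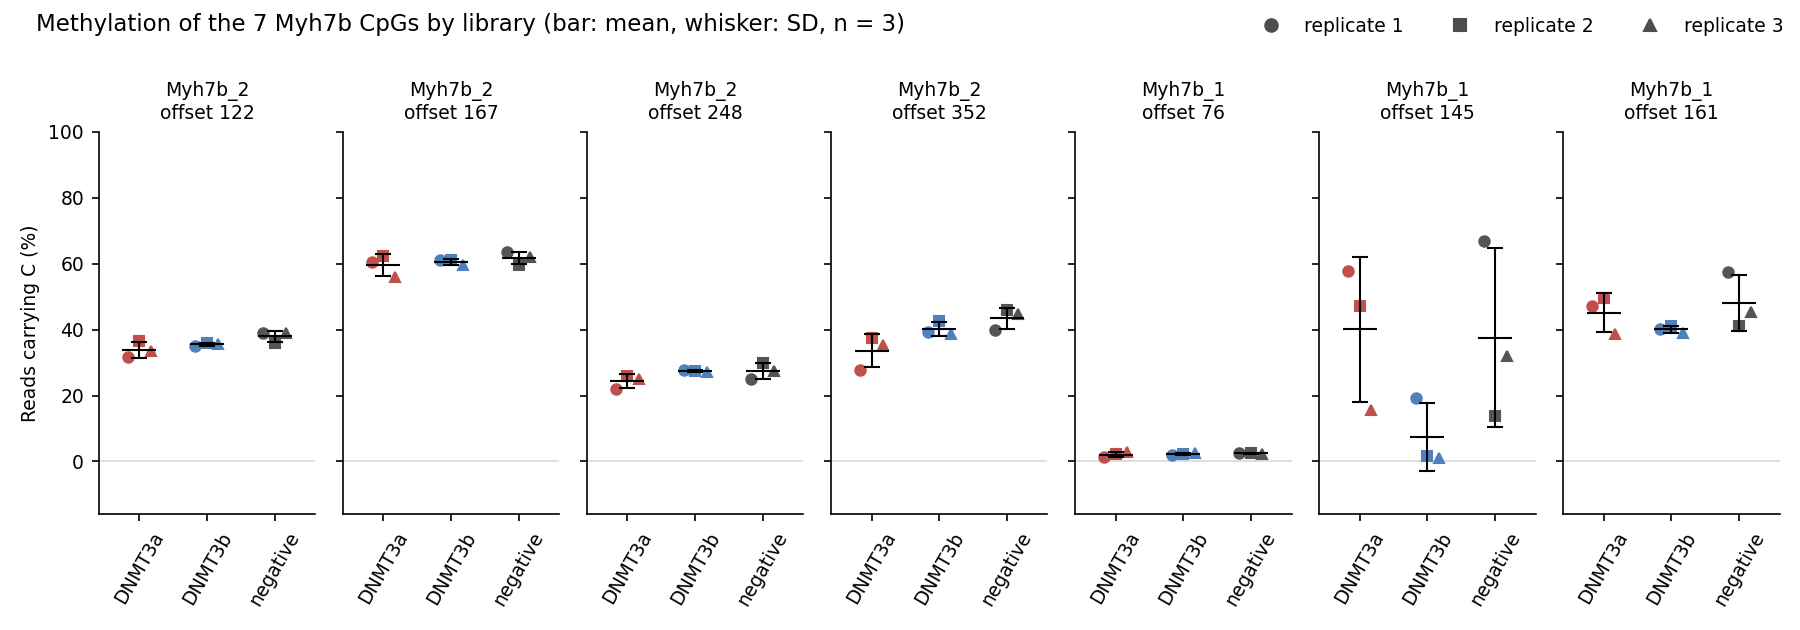
Percent of reads carrying C at each of the 7 CpGs, ordered along the promoter, with 1 point per library (circle, square and triangle for replicates 1, 2 and 3), a bar at the group mean and whiskers of 1 SD (n = 3). Points spread from 1.07% to 67.0% at offset 145 of Myh7b_1 and stay within 31.6% to 39.0% at offset 122 of Myh7b_2.

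Averaged over its 3 CpGs, Myh7b_1 stood at 35.4%, 33.0% and 18.9% in DNMT3a siRNA replicates 1, 2 and 3, at 20.4%, 15.0% and 14.2% in DNMT3b siRNA, and at 42.4%, 19.1% and 26.5% in negative siRNA. The DNMT3b libraries were thus among the lowest, yet replicate 1 lay above negative siRNA replicate 2 and DNMT3a siRNA replicate 3. The difference between DNMT3b and negative siRNA was -12.8 points, or -17.2 points with reads pooled over the amplicon, -4.04 points without offset 145 and -6.22 points without negative siRNA replicate 1. Between DNMT3a and negative siRNA it was -0.21 points, or 1.98 points with reads pooled, and over single libraries left out it ran from -5.32 to 6.33 points, with a sign that depended on the library. Between DNMT3a and DNMT3b siRNA it was 12.6 points, or 19.2 points with reads pooled and 2.46 points without offset 145.

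The depth of Myh7b_1 and the level at offset 145 were highest in the same libraries, but differed in order among the rest. Coverage there was 16764, 13282 and 7837 reads in DNMT3a siRNA replicates 1, 2 and 3, 3917, 3641 and 5527 reads in DNMT3b siRNA, and 17179, 7013 and 5398 reads in negative siRNA. The 3 libraries with the highest levels were the 3 deepest. Among the rest, negative siRNA replicate 3 was at 31.9% on 5398 reads and DNMT3a siRNA replicate 3 at 15.5% on 7837 reads. Reads carrying C numbered 9681, 6248 and 1215 in DNMT3a siRNA, 756, 63 and 59 in DNMT3b siRNA, and 11512, 961 and 1724 in negative siRNA. Reads carrying T numbered 7083, 7034 and 6622 in DNMT3a siRNA, 3161, 3578 and 5468 in DNMT3b siRNA, and 5667, 6052 and 3674 in negative siRNA. Between libraries the T reads thus stayed within 3161 to 7083, while the C reads ran from 59 to 11512.

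Coverage farther along the amplicon also differed between libraries. At offset 220, a cytosine chosen after the profile was seen, coverage was 5112, 3932 and 621 reads in DNMT3a siRNA replicates 1, 2 and 3, 13, 8 and 6 reads in DNMT3b siRNA, and 5156, 390 and 20 reads in negative siRNA. As a percent of the coverage at offset 145 this was 30.5%, 29.6% and 7.92% in DNMT3a siRNA, 0.332%, 0.220% and 0.109% in DNMT3b siRNA, and 30.01%, 5.56% and 0.371% in negative siRNA. Coverage did not end there, and at offset 303 the DNMT3b siRNA libraries had more reads, 43, 39 and 63. The same percent at offset 303 was 12.4%, 13.7% and 3.66% in DNMT3a siRNA replicates 1, 2 and 3. In DNMT3b siRNA it was 1.10%, 1.07% and 1.14%, and in negative siRNA 14.2%, 2.85% and 1.11%. The 3 libraries with the highest levels at offset 145 were those whose coverage at offset 220 was about 30% of that at offset 145. These are separate counts, and no read was followed from one offset to the other. The order was not the same throughout, since negative siRNA replicate 3 and DNMT3b siRNA replicate 1 had 31.9% and 19.3% at offset 145 with 20 and 13 reads at offset 220. Between offset 145 and the next listed cytosine, offset 147, coverage fell in every library, to 69.1% to 81.4%. The part of depth and of coverage along the amplicon in the levels of Myh7b_1 was not tested.

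**Figure D4:**
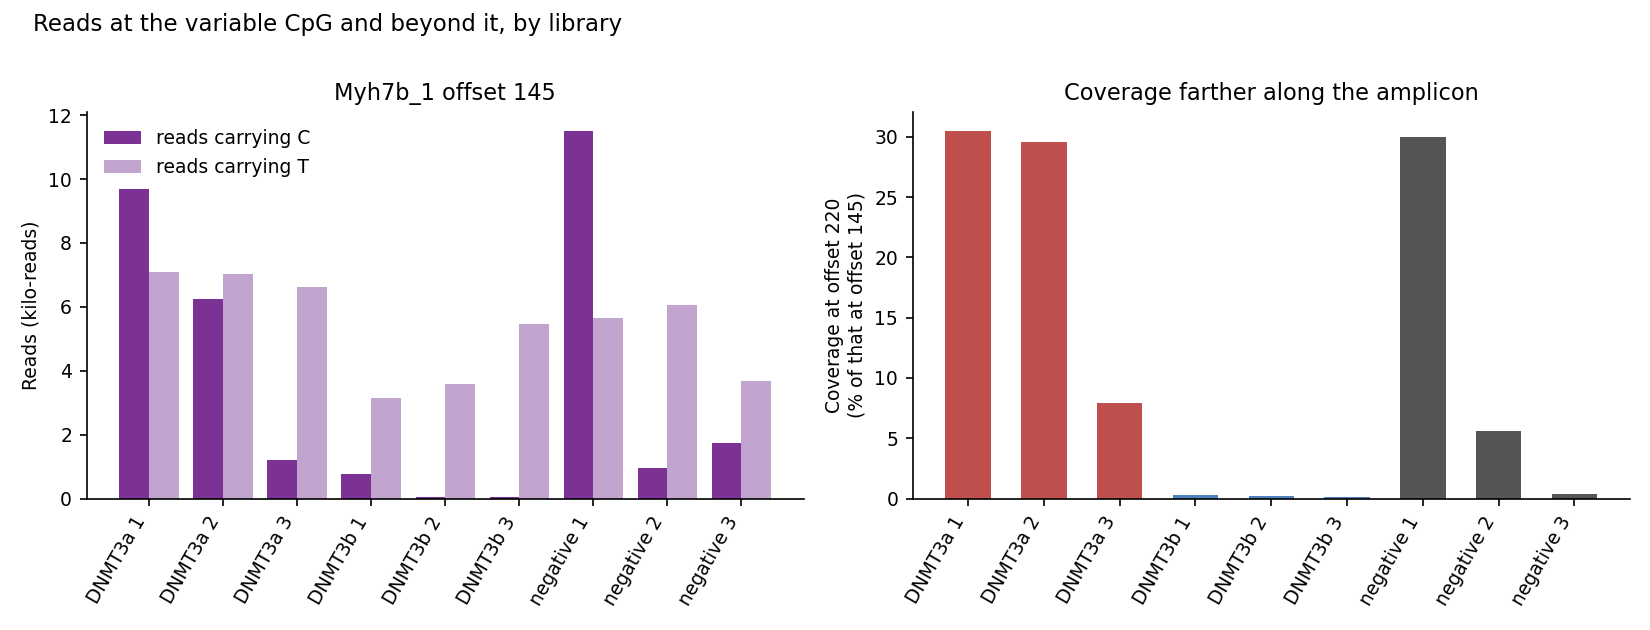
Left, reads carrying C and reads carrying T at offset 145 of Myh7b_1, in kilo-reads, for each library. Right, coverage at offset 220 as a percent of that at offset 145. C reads range from 59 to 11512 and T reads from 3161 to 7083. Coverage at offset 220 is about 30% of that at offset 145 in DNMT3a siRNA 1 and 2 and negative siRNA 1. It is under 8% in the other libraries.

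Among the 26 amplicons, the mean coverage of tested CpGs in the deepest library was 4.55 times that in the shallowest for Myh7b_1 and 11.9 times for Myh7b_2, the third highest and the highest ratios, where the median amplicon had 1.74. For Myh7b_2 the ratio came from DNMT3a siRNA replicate 1, at 721.5 reads per CpG, where the other libraries had 6532 to 8555. That value was 9.93% of the median of the other libraries. In the same library Myh7b_1 was at 260.4% of the median of the others, and the remaining 24 amplicons at 47.8% to 132.6%.

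**Figure D5:**
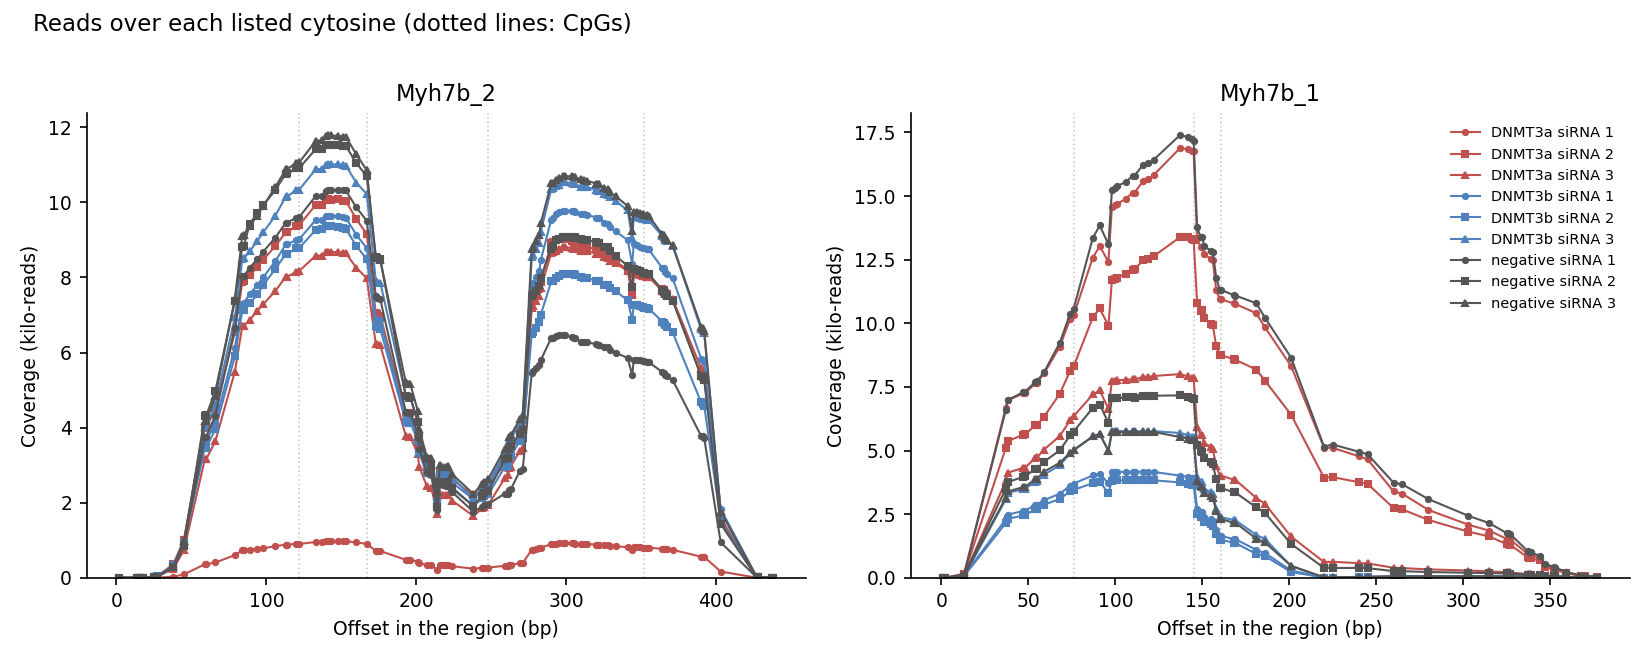
Coverage in kilo-reads at every listed cytosine against offset in bp, for Myh7b_2 (left) and Myh7b_1 (right), 1 line per library, with dotted lines at the CpGs. In Myh7b_2, DNMT3a siRNA 1 lies far below the others, and in Myh7b_1 the lines of DNMT3a siRNA 1 and 2 and negative siRNA 1 have 3932 to 5156 reads at offset 220, where the others have 621 or fewer.

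Myh7b_2 varied less, and its level was lower with DNMT3a siRNA than with negative siRNA in mean, without passing the test. Over its 4 CpGs it averaged 35.5%, 40.5% and 37.4% in DNMT3a siRNA replicates 1, 2 and 3, against 41.8%, 42.8% and 43.3% in negative siRNA. All 3 DNMT3a libraries lay below all 3 negative ones, by as little as 40.5% against 41.8%. Groups failed to overlap in 23.1% of the 26 amplicons in this comparison. The means lay -4.81 points apart, with p = 0.10 by an exact permutation test on both sides, the smallest p that 3 against 3 libraries allow (adjusted p = 0.15 over 3 comparisons). With reads pooled over the amplicon, which weights CpGs by coverage, they lay -5.59 points apart. Calls past the middle of the amplicon were 59.1%, 58.3% and 61.4% of all in DNMT3a siRNA replicates 1, 2 and 3. In negative siRNA they were 49.8%, 55.3% and 58.8%, and the part of this in the difference was not tested. By edgeR's quasi-likelihood test on summed reads the log2 odds ratio was -0.33 ± 0.094 SE. Its p was the lowest of the 26 amplicons, of which 3 had an unadjusted p under 0.05 by edgeR. After adjustment the p of Myh7b_2 was above the threshold of 0.05 (adjusted p = 0.0935, 0% of amplicons called). DESeq2 gave an adjusted p of 0.0297, and without DNMT3a siRNA replicate 2 edgeR gave -0.42 with an adjusted p of 0.0140. The range of edgeR's adjusted p over single libraries left out was 0.0140 to 0.332, and without the shallow DNMT3a siRNA replicate 1 the log2 odds ratio was -0.26 with an adjusted p of 0.317.

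All 4 CpGs of Myh7b_2 were lower in mean with DNMT3a siRNA, with a median difference of -3.61 points beside 188 lower of the 310 CpGs with a median of -0.094 points. Only 177 of the 310 had mean levels between 2% and 98%, and a CpG of very low level has little room to fall in points. Of 64 CpGs in the other sarcomere genes of the panel, 55 were lower, with a median of -2.34 points. The difference was widest at offset 352, the CpG of this amplicon nearest to the start. It stood at 27.9%, 37.5% and 35.3% in DNMT3a siRNA replicates 1, 2 and 3, against 39.8%, 45.9% and 44.6% in negative siRNA. The groups did not overlap, as at 15.2% of all 310 CpGs, and the 27.9% of DNMT3a siRNA replicate 1 rested on 804 reads. By edgeR the log2 odds ratio at offset 352 was -0.60 ± 0.21 SE (adjusted p = 0.375).

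At the other CpGs of Myh7b_2 these groups overlapped. Offset 167, the most methylated CpG of the promoter, stood at 60.7%, 62.2% and 55.9% in DNMT3a siRNA replicates 1, 2 and 3, at 61.1%, 61.0% and 59.5% in DNMT3b siRNA, and at 63.5%, 59.7% and 62.0% in negative siRNA, so its groups overlapped in every pairing. Offset 122 stood at 31.6%, 36.4% and 33.4% in DNMT3a siRNA, where replicate 2 lay above the lowest negative library, at 35.9%. It averaged 33.8% ± 2.44 in DNMT3a siRNA libraries and 37.9% ± 1.74 with negative siRNA, offset 167 averaged 59.6% ± 3.30 with DNMT3a siRNA and 61.7% ± 1.89 with negative siRNA, and offset 248 averaged 24.3% ± 2.16 with DNMT3a siRNA and 27.4% ± 2.34 with negative siRNA (SD, n = 3 each). edgeR called 0 of the 4 CpGs and 0 of all 310 (0%), with 1 of the 4 and 39 of the 310 at an unadjusted p under 0.05. limma and DESeq2 also called 0 of the 4, and 0 and 4 of the 310.

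For DNMT3b siRNA the difference in Myh7b_2 was smaller. The amplicon averaged 40.8%, 41.7% and 40.3% in DNMT3b siRNA replicates 1, 2 and 3, against 41.8%, 42.8% and 43.3% in negative siRNA. The groups did not overlap, by 41.7% against 41.8%, in a comparison where 19.2% of amplicons did not. The means lay -1.71 points apart (p = 0.10 by the same exact permutation test, adjusted p = 0.15), or -2.60 points with reads pooled over the amplicon. The log2 odds ratio was -0.15 ± 0.094 SE (edgeR adjusted p = 0.493, 0% of amplicons called). Levels were lower in mean at 3 of 4 CpGs, beside 213 of the 310, with a difference of -3.22 points at offset 352 (40.2% ± 2.08 with DNMT3b siRNA and 43.4% ± 3.21 with negative siRNA, SD, n = 3 each), while offset 248 was at 27.5% ± 0.31 with DNMT3b siRNA and 27.4% ± 2.34 with negative siRNA. Offset 122 stood at 35.0%, 35.9% and 35.6% with DNMT3b siRNA, against 38.9%, 35.9% and 39.0% with negative siRNA, and was the only CpG of the 4 without overlap, by 35.88% against 35.93%. Groups did not overlap at 20.6% of the 310. edgeR, limma and DESeq2 each called 0 of the 4 CpGs and 0 of the 310 (0%), with 0 of the 4 and 34 of the 310 at an unadjusted p under 0.05 by edgeR.

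Between the siRNAs to the methyltransferases, levels of Myh7b_2 overlapped, since DNMT3a siRNA replicate 2, at 40.5%, lay above DNMT3b siRNA replicate 3, at 40.3%. The means lay -3.10 points apart (p = 0.20 by the same exact permutation test, adjusted p = 0.20). It was -1.94 points without DNMT3a siRNA replicate 1. The log2 odds ratio was -0.18 ± 0.094 SE (edgeR adjusted p = 0.510, 0% of amplicons called), -0.11 when DNMT3a siRNA replicate 1 was left out and -0.27 when replicate 2 was. Without overlap were 15.4% of the 26 amplicons. Mean levels of all 4 CpGs were lower with DNMT3a siRNA, beside 129 of the 310, and at offsets 248 and 352 the groups did not overlap, 2 of 4 beside 13.5% of the 310. Offset 248 stood at 21.9%, 26.0% and 25.0% with DNMT3a siRNA, against 27.8%, 27.4% and 27.2% with DNMT3b siRNA. Offset 352 stood at 27.9%, 37.5% and 35.3% with DNMT3a siRNA, against 39.3%, 42.6% and 38.7% with DNMT3b siRNA, and edgeR gave a log2 odds ratio of -0.41 ± 0.21 SE there (adjusted p = 0.623). edgeR called 0 of the 4 CpGs and 0 of the 310 (0%), with 0 of the 4 and 23 of the 310 at an unadjusted p under 0.05. limma and DESeq2 called 0 of the 4, and 0 and 7 of the 310.

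The other sarcomere genes of the panel, Myh6, Myh7 and the troponin genes Tnnc1, Tnni3 and Tnnt2, have 10 amplicons. With DNMT3a siRNA 9 of the 10 were lower in mean than with negative siRNA, with a median difference of -2.30 points beside 17 lower of all 26 amplicons with a median of -0.76 points. With DNMT3b siRNA 10 of the 10 were lower, with a median of -1.80 points, beside 21 of 26 with a median of -1.08 points. The 26 include amplicons of very low level, such as Cdkn1b_1, which have little room to fall in points. Between DNMT3a and DNMT3b siRNA 5 were lower and 5 higher with DNMT3a siRNA, with a median of 0.030 points, beside 11 lower and 15 higher of 26 with a median of 0.10 points. edgeR called 0 of the 10 in each comparison, with 3, 4 and 3 of all 26 amplicons at an unadjusted p under 0.05 for DNMT3a against negative, DNMT3b against negative and DNMT3a against DNMT3b siRNA. DESeq2 called 3, 0 and 0 amplicons and limma 0. Both siRNA groups were compared with the same 3 negative libraries.

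The 3 amplicons of other genes whose means ran most like those of Myh7b_1 over the 9 libraries were Nppb_2 (Pearson r = 0.807, Spearman rho = 0.767), Nppa_1 (r = 0.785, rho = 0.767) and Nppb_1 (r = 0.610, rho = 0.60), of the genes for B-type and atrial natriuretic peptide. Those most like Myh7b_2 were Myh7_1 (r = 0.903, rho = 0.75), Tnnt2_2 (r = 0.895, rho = 0.883) and Myh7_2 (r = 0.873, rho = 0.65). These are the highest of 24 values each, taken over 9 libraries in 3 groups, and are given as a description. Myh7b_1 and Myh7b_2, although adjoining, had r = -0.153.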

How the data were processed

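Bisulfite amplicon libraries of 9 samples were used. Per the labels' protocols, PCR products of a sample were pooled and tagmented. Coverage varied along an amplicon, and the part of tagmentation in this was not tested. The submitters' processing notes name FastQC, Bismark, Bowtie2 and mm10, while versions and settings are not given in the sources used here. For every listed cytosine the deposited tables give a read count (coverage) and, per the file headers, the percent of C and of T, which add to 100. Other bases are not listed, and a T is counted alike whatever its origin. Methylated counts were coverage times percent, whole within 0.01 reads in 23884 of 23884 values.

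CpGs with 30 or more reads in all libraries were tested with edgeR 4.0.16 (R 4.3.3), using its quasi-likelihood test. Each library gave a methylated and an unmethylated column and had its own term, and all 9 entered a single fit, with Benjamini-Hochberg adjustment over all 310 CpGs or 26 amplicons and a threshold of 0.05. Amplicon counts were summed over CpGs. Amplicon means were compared by exact permutation. Other settings tried were minimum coverages of 10 and 100, limma 3.58.1 (prior count 2), DESeq2 1.42.0, other subsets of libraries or CpGs, and the replicate number as a block. Reads of PCR products carry no molecular identifiers, so intervals cover counting error only. To look for a library deposited more than once, the 9 pairs within groups were compared, and 75 to 150 of 310 CpGs had separate Wilson intervals, so each library was counted as a sample. This says nothing of the source of the differences.

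Nothing in the labels ties replicate numbers to a shared litter or day. Over 310 CpGs the deviations of same-numbered libraries correlated at 0.40, 0.20 and 0.12 between DNMT3b and negative siRNA. They correlated at 0.33, 0.29 and 0.17 between DNMT3a and DNMT3b siRNA, but at 0.46, -0.19 and -0.23 between DNMT3a and negative siRNA. For libraries of unlike number in these comparisons the values ran from -0.53 to 0.79, and most of them were negative. The highest of all was that of DNMT3a siRNA replicate 3 with negative siRNA replicate 2. Amplicons and CpGs of Myh7b were all named. Other genes were named by the largest likeness over 9 libraries or by the largest SD, 3 each. Members, lists and tests were chosen with earlier results of these data known. Positions are those of RefSeq on GRCm38.p6, the assembly mm10 corresponds to, by match of the listed cytosines.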

Additional observations from a re-analysis of the deposited data

How the results depend on the processing

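Every alternative run left 0 CpGs of Myh7b_2 called in the 3 comparisons. The change of Myh7b_2 between DNMT3a and negative siRNA passed the threshold under 2 of 12 alternatives, with DESeq2 (log2 odds ratio -0.32, adjusted p = 0.0297) and without DNMT3a siRNA replicate 2 (edgeR, -0.42, adjusted p = 0.0140), and over single libraries left out it ran from -0.42 to -0.26. It kept its sign in all. The cause was not tested. The other 2 log2 odds ratios of Myh7b_2 kept their side of the threshold under all 12. The replicate block changed no call: with it Myh7b_2 was at -0.33 (edgeR adjusted p = 0.144), -0.15 (0.564) and -0.18 (0.598) for DNMT3a against negative, DNMT3b against negative and DNMT3a against DNMT3b siRNA, and the paired exact sign-flip p was 0.25 in each, the smallest that 3 pairs allow.

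With reads pooled over the amplicon, the difference of Myh7b_2 between DNMT3b and negative siRNA was -2.60 points in place of -1.71. Without its most variable CpG, the difference of Myh7b_1 between DNMT3a and DNMT3b siRNA was 2.46 points in place of 12.6. Offset 145 ranked 10 by SD on the logit scale, and 1 to 2 over single libraries left out. Over all 310 CpGs, where edgeR called 0, DESeq2 called 4 for DNMT3a against negative and 7 for DNMT3a against DNMT3b siRNA, and edgeR called 2 for DNMT3a against negative among CpGs between 2% and 98%. Of 26 amplicons 3 were called by DESeq2, and 3 by edgeR without DNMT3a siRNA replicate 2, for DNMT3a against negative siRNA. Coverage minimums of 10 and 100 kept all 7 CpGs, so their levels stayed as they were. Depth limits DNMT3a siRNA replicate 1 most, where offset 248 rested on 274 reads with a Wilson interval 9.76 points wide.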

Other observations

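Outside Myh7b, the CpGs with the largest SD between libraries were offset 195 of Tnnt2_1 (cardiac troponin T, pooled SD 18.5 points), offset 49 of Tnni3_2 (cardiac troponin I, 12.9 points) and offset 374 of Cdkn1a_1 (the CDK inhibitor p21, 12.1 points). Offset 195 of Tnnt2_1 stood at 30.4%, 66.3% and 51.5% in DNMT3a siRNA replicates 1, 2 and 3, at 32.8%, 62.0% and 58.7% in DNMT3b siRNA, and at 35.1%, 60.5% and 77.1% in negative siRNA. Replicate 1 was the lowest of each group there and the highest of each group at offset 145 of Myh7b_1. Offset 49 of Tnni3_2, on 106 to 174 reads, was also lowest in replicate 1 of each group, at 61.8%, 55.8% and 70.0% in DNMT3a, DNMT3b and negative siRNA. Offset 374 of Cdkn1a_1 ran from 32.1% to 66.2%, with replicate 1 the lowest only in DNMT3b siRNA. Coverage at offset 195 of Tnnt2_1 was 18077 to 30102 reads, and that at offset 145 of Myh7b_1 was 3641 to 17179 reads. The part of depth in the spread at either CpG was not tested. What replicate numbers share is not given in the sources used here.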
